A study of Mus musculus with 20 samples.

Results

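Solute carriers are the membrane proteins through which most small molecules enter and leave a cell, from amino acids, sugars and bile acids to metals and protons. In the liver they stand on the sinusoidal side of the hepatocyte, where nutrients are taken from the blood, and on the canalicular side, where bile is formed, and others serve lysosomes, the Golgi and the endoplasmic reticulum. Many belong to families that share a fold and differ in substrate, and several couple uptake to sodium, protons or another solute. During bacterial inflammation the liver is known to draw metals out of the blood and to lower its uptake and export of bile acids and drugs.

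The genes were chosen by name and level. A gene entered if the platform's annotation gave its probe set a single symbol of the form Slc, a family number, the letter a and a member number; 309 symbols did. The mitochondrial Slc25 family and Slc2a2, Slc37a4, Slc10a1, Slc40a1 and Slc39a14 were left out by the rule, which left 260 genes. Each gene was read from its brightest probe set, the short oligonucleotide group that reports a transcript. A gene was kept if it exceeded 16 intensity units, a log2 level of 4, on at least 5 of 20 arrays. That left 116 of the 8774 genes tested in the series, and the other 144 lay below the filter and were not tested. The fifth-highest array of the last genes outside read 15 units for Slc39a13, 15.2 for Slc2a5, 15.4 for Slc1a4 and 15.6 for Slc8a1, and that of the first genes inside read 18.7 for Slc16a4, 19.1 for Slc39a3, 20 for Slc50a1 and 20.3 for Slc5a3. The level on these arrays chose the genes, so which of them are seen in liver is a description and not a result. Of the 116, 72 were above 16 units on all 20 arrays and 7 had a mean log2 level of 4 or below. The label under which they were gathered, plasma membrane carriers, held for only part of them: 31 are on a list of carriers read as working mainly in organelles, and a few outside it, such as the lysosomal Slc66a1, do so too. They are called solute carrier genes here. They were put into 12 groups by the usual substrate of their family, in which a single member can depart from its family.

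The study measured liver RNA of 20 male mice on Affymetrix arrays, 1 array a mouse, and its title asks how the MCAD-deficient liver manages carbohydrate under high metabolic demand. Acadm encodes medium-chain acyl-CoA dehydrogenase (MCAD), a mitochondrial enzyme of the first step in breaking down medium-chain fatty acids. There were 4 groups of 5 mice: mcad-/- with lipopolysaccharide (LPS, the bacterial outer membrane component, 100 µg per 20 g body weight), wild type with the same dose, and mcad-/- and wild type given vehicle. Every mouse was 50 to 60 days old, came from a mixed BL6/SV129 background and was fasted for 12 h after the injection, so that a fed state was not part of the comparison. Littermate control is not stated in the sources used here, so that strain differences and the knockout cannot be told apart. In whole-liver RNA, fewer cells of a type and less RNA per cell cannot be told apart either.

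Acadm followed the genotype labels in every mouse. With vehicle it read 9.03 to 80.2 units in MCAD-/- mice against 3106 to 4022 units in wild type mice, and with LPS 14.3 to 218 units in MCAD-/- mice against 1450 to 2375 units in wild type mice (exact permutation p = 0.00794 each, two-sided, the smallest that 252 regroupings allow). The 6 hepatocyte markers tested summed to at least 64975 units in every mouse, and 4 of them fell with LPS in each genotype. Those of T and NK cells, B cells and bile duct cells did not pass the filter. The 3 tested neutrophil markers rose with LPS in both genotypes: the list summed to 2704 to 3225 units in MCAD-/- mice with LPS against 44.3 to 217 with vehicle, and to 1856 to 3913 units in wild type mice with LPS against 47.5 to 120 with vehicle. Of the 8 neutrophil markers read, 5 were at or below 16 units in all 5 mice of each LPS group, so these sums rest on the 3 tested. The part of these cells in the LPS results was not tested. The actin control probe sets, whose 3′ signal over 5′ signal grows as RNA is degraded or incompletely copied, gave a log2 ratio of 3.69 on the array of wild type LPS replicate 4 and 3.18 on that of wild type vehicle replicate 3, outside the range of 1.35 to 2.34 on the rest.

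LPS moved solute carrier genes in both directions. In MCAD-/- mice 42 of 116 rose and 43 fell, and in wild type mice 46 rose and 47 fell (limma, Benjamini-Hochberg adjusted p under 0.05). That was 73.3% of them in MCAD-/-, where 65.7% of all tested genes passed (38.1% higher, 27.6% lower), and 80.2% in wild type, where 64% passed (40% higher, 24% lower). The median log2 change was -0.07 in MCAD-/- and -0.16 in wild type, against 0.14 and 0.18 over all tested genes. In MCAD-/- 24 rose and 27 fell at least 2-fold, against 12.8% and 11.3% of all tested genes. In wild type 26 rose and 29 fell at least 2-fold, against 14.1% and 8.81% of all tested genes. The groups did not overlap for 74 genes in MCAD-/- and 69 in wild type, against 51.4% and 46.1% of all tested genes. Of the genes that rose, 36 did so in both genotypes (85.7% of the MCAD-/- list and 78.3% of the wild type list), and of those that fell 39 did (90.7% and 83%); 14 passed in neither. A gene kept by the filter only because it was bright in 1 condition had to differ, and 5 were above 16 units in LPS mice only (Slc10a6, Slc13a5, Slc15a3, Slc41a1 and Slc7a6, the last pair named after their values were seen) and 3 in vehicle mice only (Slc16a4, Slc2a9 and Slc39a2). Likewise Slc6a16 was above 16 units in MCAD-/- mice only, and Slc39a2 in wild type mice only, so that the filter partly fixed their differences between genotypes as well.

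**Figure D1:**
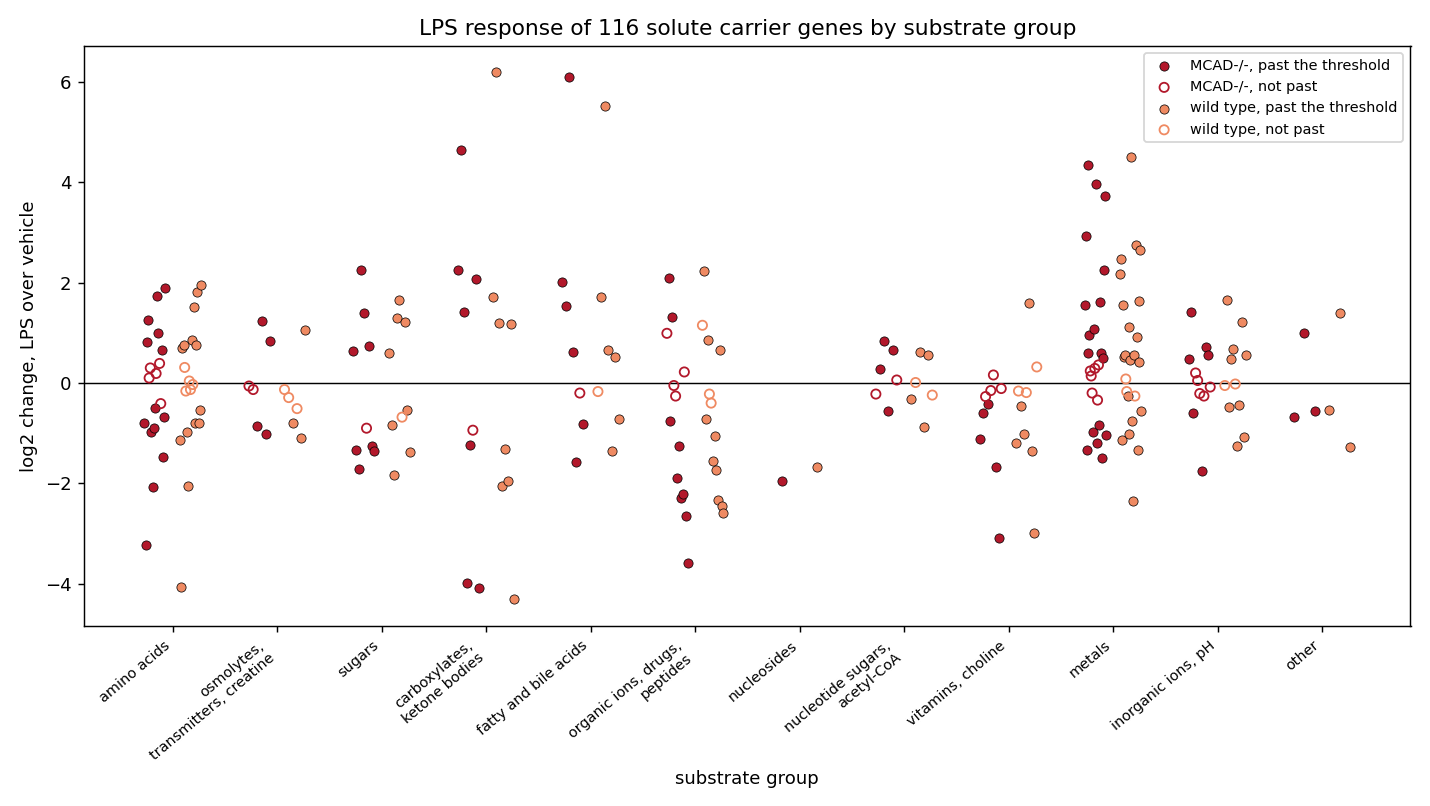
Log2 change of each of the 116 solute carrier genes with LPS over vehicle (vertical axis), by substrate group (horizontal axis), with MCAD-/- to the left of wild type; filled points passed the limma test and open points did not. Most groups hold rises and falls. The highest points, Slc13a5 and Slc10a6, were kept by the filter through LPS mice alone and have vehicle mice under 16 units, so that their heights are not measured rises and their order has no meaning; the lowest point in each genotype is Slc16a7 (-4.09 in MCAD-/-, -4.31 in wild type), whose LPS mice averaged under 16 units.

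Metal carriers were the largest group, with 24 genes. In MCAD-/- 12 rose and 6 fell (median log2 change 0.43), and in wild type 14 rose and 7 fell (median 0.48). Of all tested genes 38.1% rose and 27.6% fell in MCAD-/-, and 40% rose and 24% fell in wild type. The same shares apply to the LPS counts of the other substrate groups, and differences between groups were not tested. Slc39a10, a plasma membrane zinc importer, read 313, 313, 301, 148 and 400 units in MCAD-/- mice with LPS, against 16.6, 21.6, 20.1, 17 and 15.2 with vehicle. It read 350, 356, 380, 209 and 280 units in wild type mice with LPS, against 13.8, 10.8, 19.3, 10.8 and 14.3 with vehicle. Every LPS mouse was far above every vehicle mouse, and 1 MCAD-/- mouse was low among its LPS group at 148 units. The log2 change was 3.97 ± 0.23 (SE) in MCAD-/- (adjusted p = 1.52e-11) and 4.51 ± 0.23 in wild type (adjusted p = 2.26e-12). Slc41a2, a magnesium carrier, read 2382, 2083, 2696, 1882 and 2622 units in MCAD-/- mice with LPS, against 75.3, 217, 105, 124 and 779 with vehicle. It read 1117, 1186, 1837, 1455 and 1707 units in wild type mice with LPS, against 417, 159, 204, 172 and 263 with vehicle. The groups did not overlap, and 1 MCAD-/- vehicle mouse stood high at 779 units. It rose 13.2-fold in MCAD-/- (adjusted p = 3.00e-07) and 6.3-fold in wild type (adjusted p = 2.12e-05). Slc11a2, the divalent metal transporter that takes up iron, rose 7.56-fold in MCAD-/- and 5.53-fold in wild type. Slc39a6, a zinc importer, rose 3.08-fold in MCAD-/- and 6.68-fold in wild type, and Slc11a1, a metal pump of macrophage phagosomes, 2.95-fold in MCAD-/- and 4.5-fold in wild type. Of 10 tested markers of Kupffer cells and macrophages, 1 rose and 9 fell with LPS in MCAD-/-, and 1 rose and 6 fell in wild type. Slc30a5, which loads zinc into the secretory pathway, rose 1.95-fold in MCAD-/- and 1.47-fold in wild type.

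Some metal carriers fell. Slc39a8, which imports zinc and manganese, was 2.81-fold lower with LPS in MCAD-/- (adjusted p = 8.67e-07) and 2.53-fold lower in wild type (adjusted p = 3.49e-06). Slc39a11 was 2.28-fold lower in MCAD-/- and 1.69-fold lower in wild type. Slc39 genes carry zinc and related metals into the cytosol, and the rule left out Slc39a14. Of the 10 Slc39 genes tested here, 4 rose and 3 fell in MCAD-/-, and 6 rose and 3 fell in wild type. Of the 7 tested Slc30 genes, which mostly carry zinc the other way, 3 rose and 1 fell in MCAD-/-, and 3 rose and 2 fell in wild type. The folds of Slc39a10, Slc39a6 and Slc11a1 in wild type rest on vehicle groups that averaged under 16 units with some mice above, and so depend on the floor of the array method. The same holds for other values of Slc6a8, Slc43a2 and Slc44a2 in wild type mice with vehicle, of Slc15a2 in wild type with either injection, of Slc10a2, Slc30a10 and Slc37a1 in MCAD-/- mice with vehicle, of Slc16a7 with LPS and of Slc43a1 in wild type mice with LPS.

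Among the carriers of carboxylates, ketone bodies and thyroid hormone the falls and rises were both large. Slc13a5, the sodium-coupled citrate importer of the hepatocyte, read 191, 94.9, 104, 126 and 129 units in MCAD-/- mice with LPS, against 3.9, 5.87, 4.38, 4.61 and 6.76 with vehicle. It read 240, 331, 404, 615 and 354 units in wild type mice with LPS, against 4.28, 5.54, 4.66, 5.06 and 6.11 with vehicle. All 10 vehicle mice sat at the floor and all 10 LPS mice well above it. It was at least 7.82-fold higher in MCAD-/- (adjusted p = 8.98e-13) and at least 23.2-fold higher in wild type (adjusted p = 1.25e-14). As LPS mice alone brought Slc13a5 past the filter, these p values are not independent of the filter. Slc16a7, a monocarboxylate carrier of lactate, pyruvate and ketone bodies, read 12, 12.8, 11, 20.1 and 16.5 units in MCAD-/- mice with LPS, against 196, 203, 249, 292 and 275 with vehicle. It read 20.5, 10.7, 5.56, 11.1 and 33.2 units in wild type mice with LPS, against 319, 229, 268, 233 and 297 with vehicle. Every vehicle mouse read at least 196 units and no LPS mouse more than 33.2. The log2 change was -4.09 ± 0.32 (SE) in MCAD-/- (adjusted p = 1.46e-09) and -4.31 ± 0.32 in wild type (adjusted p = 8.25e-10). Slc16a1, the other main carrier of the same monocarboxylates, rose 2.68-fold in MCAD-/- (adjusted p = 5.49e-05) and 2.28-fold in wild type (adjusted p = 0.000365). Slc13a3, a carrier of dicarboxylates such as succinate, rose 4.74-fold in MCAD-/- and 3.28-fold in wild type. Slc16a12, known as a creatine carrier, fell 15.9-fold in MCAD-/- and 4.18-fold in wild type. Of the 8 genes of this group 4 rose and 3 fell in MCAD-/-, and 4 rose and 4 fell in wild type.

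**Figure D2:**
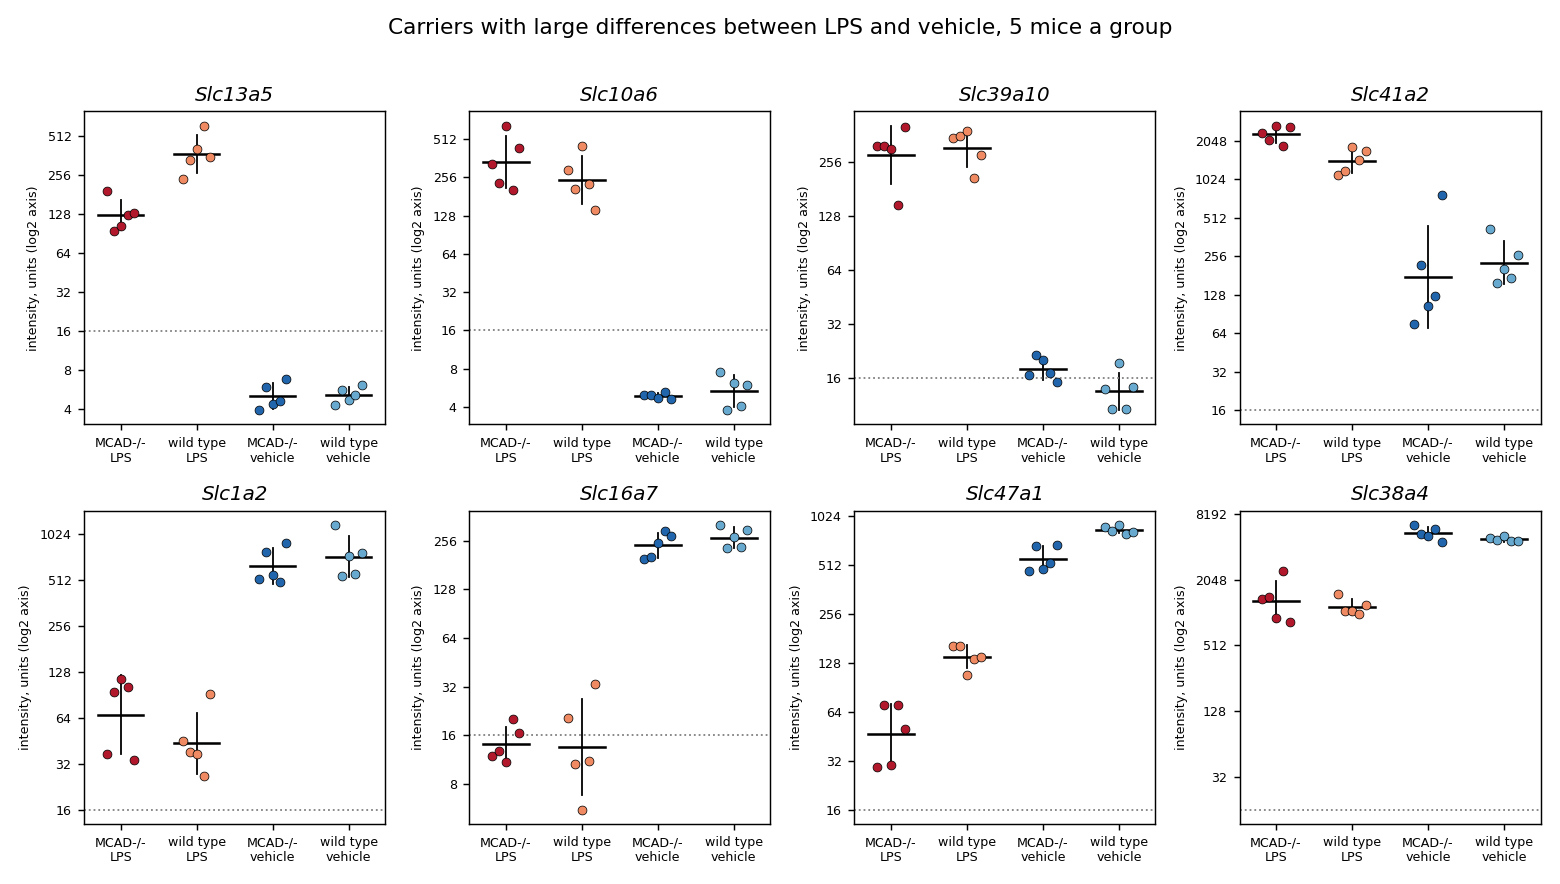
Intensity of 8 carrier genes on a log2 axis in each mouse, for MCAD-/- LPS, wild type LPS, MCAD-/- vehicle and wild type vehicle from left to right; bars are geometric means, lines 1 SD of the log2 values, and the dotted line is 16 units. For each of the 8 the LPS mice of a genotype lie apart from its vehicle mice, with Slc13a5 and Slc10a6 under 8 units in every vehicle mouse.

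Of the 7 carriers of fatty acids and bile acids, 4 rose and 2 fell in each genotype. Slc10a6, a sodium-coupled carrier of sulfated steroids, read 323, 229, 651, 205 and 433 units in MCAD-/- mice with LPS, against 4.94, 4.95, 4.68, 5.29 and 4.64 with vehicle. It read 294, 206, 452, 225 and 141 units in wild type mice with LPS, against 7.58, 3.79, 6.24, 4.11 and 5.92 with vehicle. No vehicle mouse reached the floor of 16 units and every LPS mouse read at least 141. It was at least 21-fold higher in MCAD-/- (adjusted p = 1.37e-12) and at least 15.3-fold higher in wild type (adjusted p = 6.88e-12). Since Slc10a6 passed the filter only through LPS mice, these p values are not independent of the filter. The rule left out Slc10a1, so its LPS change is not part of these counts. All 4 Slc10 genes left by the rule and the filter rose in MCAD-/- and 3 of 4 in wild type. In wild type Slc10a2, the sodium-coupled bile acid importer known from ileum and bile duct, did not pass (log2 change -0.17 ± 0.36, adjusted p = 0.697). The Slc27 genes activate fatty acids and bile acids with coenzyme A. Slc27a2, which acts on very long-chain fatty acids, was 2.99-fold lower in MCAD-/- (adjusted p = 1.72e-09) and 2.56-fold lower in wild type (adjusted p = 1.59e-08). Slc27a5, which recycles bile acids, was 1.75-fold lower in MCAD-/- and 1.64-fold lower in wild type. The third tested, Slc27a4, which acts on long-chain fatty acids, rose 1.42-fold in wild type (adjusted p = 0.0183) and did not pass in MCAD-/- (log2 change -0.20 ± 0.18, adjusted p = 0.348).

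Carriers of organic ions, drugs and peptides mostly fell. Of 13 tested, 2 rose and 7 fell in MCAD-/- (median log2 change -0.76), and 3 rose and 7 fell in wild type (median -0.71). Slc47a1, the proton-coupled exporter of organic cations into bile, read 29.3, 69.9, 30.2, 70.2 and 50 units in MCAD-/- mice with LPS, against 467, 670, 485, 528 and 679 with vehicle. It read 162, 162, 108, 135 and 139 units in wild type mice with LPS, against 875, 823, 897, 794 and 818 with vehicle. The groups did not overlap, and the MCAD-/- LPS mice were the lowest of the 20. It fell 12-fold in MCAD-/- (adjusted p = 2.99e-11) and 6-fold in wild type (adjusted p = 3.73e-09). Slc22a7, a sinusoidal organic anion carrier, fell 6.27-fold in MCAD-/- and 5.48-fold in wild type, and Slc17a5, the lysosomal sialic acid exporter, 3.73-fold in MCAD-/- and 2.95-fold in wild type. Slc22a5, the carnitine importer that long-chain fatty acid oxidation depends on, rose 1.58-fold in wild type (adjusted p = 0.0162) and did not pass in MCAD-/- (log2 change 0.22 ± 0.23, adjusted p = 0.402). That call ended in 3 alternatives, with a highest adjusted p of 0.317. Slc15a3, a lysosomal carrier of histidine and small peptides, was at least 2.46-fold higher in MCAD-/- and at least 1.53-fold higher in wild type.

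Of the 19 amino acid carriers 6 rose and 8 fell in MCAD-/-, and 7 rose and 7 fell in wild type. Slc1a2, the sodium-coupled glutamate importer, read 36.9, 94.1, 114, 102 and 33.8 units in MCAD-/- mice with LPS, against 520, 781, 551, 494 and 898 with vehicle. It read 45.1, 38.2, 37, 26.7 and 91.7 units in wild type mice with LPS, against 1170, 543, 738, 560 and 766 with vehicle. No LPS mouse came near the lowest vehicle mouse of its genotype. It fell 9.38-fold in MCAD-/- (adjusted p = 1.66e-07) and 16.7-fold in wild type (adjusted p = 8.25e-09). Slc38a4, a sodium-coupled importer of neutral and basic amino acids, read 1348, 1431, 914, 2437 and 835 units in MCAD-/- mice with LPS, against 6453, 5362, 5138, 5913 and 4535 with vehicle. It read 1516, 1060, 1057, 995 and 1204 units in wild type mice with LPS, against 4897, 4718, 5139, 4634 and 4573 with vehicle. The highest LPS mouse, at 2437 units, was still well below the lowest vehicle mouse. It fell 4.21-fold in MCAD-/- (adjusted p = 4.30e-08) and 4.15-fold in wild type (adjusted p = 5.42e-08). Slc38a3, a glutamine carrier, fell 1.97-fold in MCAD-/- and 1.96-fold in wild type. Slc3a2, the heavy chain that brings several exchangers to the membrane, rose 1.99-fold in MCAD-/- and 2.85-fold in wild type. Slc16a10, an aromatic amino acid carrier, fell 1.75-fold in MCAD-/- and 2.18-fold in wild type by its brightest probe set, and is counted above as a fall. Of its 3 probe sets above the filter, the 2 others passed in the opposite direction in MCAD-/-. In wild type 1 of them passed in the opposite direction and 1 did not pass, so the direction of Slc16a10 is uncertain. Slc7a2, the arginine importer, fell 1.59-fold in MCAD-/- and 1.45-fold in wild type, and neither call held with the mean of its probe sets (adjusted p = 0.197 in MCAD-/- and 0.483 in wild type).

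The 250 bases before an annotated transcript start are shown for a few of these genes. For Slc1a2 the stretch lies inside the gene, which spans bases 102658239 to 102790784. For Slc41a2 it lies mostly inside the gene, which spans bases 83230848 to 83338037. Both stretches thus precede an internal start. Slc10a6 and Slc41a2 are shown as genes that rose in both genotypes, and Slc1a2 as one that fell in both. Capitals mark matches to 7 short motifs searched on both strands of RefSeq promoters (build GRCm38.p6), chosen after the data had been seen.
Slc10a6, chr5:103629404-103629653, minus strand: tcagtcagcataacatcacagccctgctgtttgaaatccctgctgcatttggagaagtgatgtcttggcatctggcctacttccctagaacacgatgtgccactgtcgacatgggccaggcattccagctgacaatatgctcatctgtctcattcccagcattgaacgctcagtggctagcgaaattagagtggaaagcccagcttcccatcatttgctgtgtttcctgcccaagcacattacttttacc
Slc41a2, chr10:83337818-83338067, minus strand: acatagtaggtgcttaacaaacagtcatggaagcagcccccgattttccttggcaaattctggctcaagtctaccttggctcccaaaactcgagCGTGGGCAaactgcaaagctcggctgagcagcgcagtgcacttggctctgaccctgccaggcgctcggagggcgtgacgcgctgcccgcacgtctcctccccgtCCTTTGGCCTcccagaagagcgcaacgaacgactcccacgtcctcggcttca
Slc1a2, chr2:102706188-102706437, plus strand: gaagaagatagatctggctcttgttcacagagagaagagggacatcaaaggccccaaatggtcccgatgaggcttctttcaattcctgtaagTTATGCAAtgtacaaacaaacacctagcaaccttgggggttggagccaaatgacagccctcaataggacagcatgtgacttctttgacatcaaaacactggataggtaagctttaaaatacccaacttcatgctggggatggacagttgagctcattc
In Slc41a2 the capitals are, in order, the reverse strand of a metal response core (TGCNCNCG) and of a PPAR direct repeat, which share no bases. In Slc1a2 they are a C/EBP motif (TTGCNNAA) on the reverse strand, and Slc10a6 had no match. The table held 126 promoters for 91 of the 116 genes. The metal response core was in 18 of the 126 (14.3%) and in 10.6% of all 32851 promoters, the direct repeat in 7 (5.56%) and in 2.55%, and the C/EBP motif in 8 (6.35%) and in 9.56%. The others were an NF-kappaB motif (2 promoters, 0.356% of all), the STAT motif TTCCNGGAA (0, 0.913%), the ATF4 motif TGATGNAA (3, 3.45%) and the HNF4 motif CAAAGTCCA (1, 0.384%). A match describes the letters and does not show a site in use.

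Vitamin, cofactor and choline carriers fell or did not pass with 1 exception. Of 9 tested, 5 fell and 0 rose in MCAD-/-, and 5 fell and 1 rose in wild type, where the riser was Slc44a2, a choline carrier-like protein (3.04-fold). Slc46a3, a lysosomal carrier, was 8.52-fold lower in MCAD-/- (adjusted p = 5.76e-10) and 7.86-fold lower in wild type (adjusted p = 1.17e-09). Slc46a1, the proton-coupled folate importer, was 3.21-fold lower in MCAD-/- and 2.56-fold lower in wild type, and Slc19a1, the reduced folate carrier, 2.15-fold lower in MCAD-/- and 2.3-fold lower in wild type. The rule left Slc2a2 and Slc37a4 out of the sugar carriers. The rest were even, with 4 of 9 higher and 4 lower in MCAD-/- and the same counts in wild type. Slc2a1, the glucose importer GLUT1 of most tissues, rose 1.54-fold in MCAD-/- and 1.52-fold in wild type. Slc2a9, a urate carrier, was at least 1.38-fold lower in MCAD-/- and at least 1.71-fold lower in wild type. The nucleoside group held only Slc29a1, an equilibrative nucleoside carrier, which fell 3.86-fold in MCAD-/- and 3.18-fold in wild type. Among 6 carriers of osmolytes, transmitters and creatine, Slc6a6, the taurine importer, fell 2.01-fold in MCAD-/- and 2.13-fold in wild type, and Slc6a8, the creatine importer, rose 1.78-fold in MCAD-/- and 2.08-fold in wild type. The MCAD-/- call of Slc6a8 ended in 3 of 31 alternatives (highest adjusted p = 0.0665). Among 11 carriers of inorganic ions, 4 rose and 2 fell in MCAD-/-, and 5 rose and 4 fell in wild type. Slc12a4, a potassium-chloride cotransporter, rose 2.65-fold in MCAD-/- and 3.15-fold in wild type. Of the 6 nucleotide sugar and acetyl-CoA carriers, 3 rose and 1 fell in MCAD-/-, and 2 rose and 2 fell in wild type.

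With vehicle, a smaller set of carriers differed between genotypes. In MCAD-/- mice 13 of 116 were higher and 16 lower (25%), where 16.2% of all tested genes passed (9.81% higher, 6.39% lower). The groups did not overlap for 10 genes higher and 10 lower, against 7.68% and 6.11% of all tested genes. The median log2 difference was -0.05, against 0.04 over all tested genes. With array quality weights 44 passed in place of 29. In the same MCAD-/- mice with vehicle, markers of liver sinusoidal endothelium summed to 1793 to 2567 units against 581 to 1241 in wild type, with 10 of 11 higher. Those of Kupffer cells and macrophages summed to 1906 to 2743 units in MCAD-/- against 1072 to 1913 in wild type (7 of 10 higher), and those of stellate cells and fibroblasts to 2442 to 2685 units against 1333 to 2404 (5 of 8 higher). None of the 6 hepatocyte markers passed. The part of these cells in the carrier differences was not tested.

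**Figure D3:**
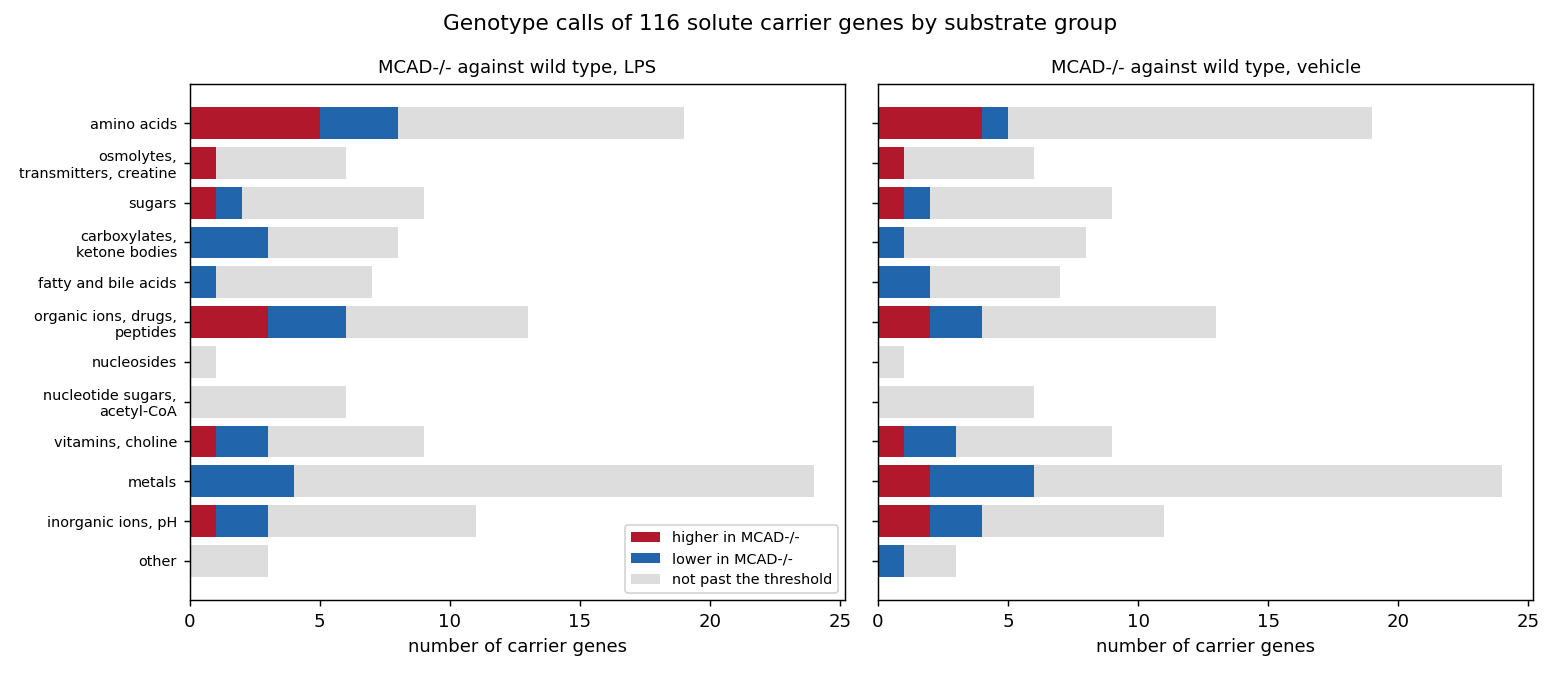
Number of solute carrier genes higher (red), lower (blue) or not past the limma threshold (grey) in MCAD-/- against wild type mice, by substrate group, with LPS on the left and vehicle on the right. Amino acid carriers hold the most higher calls in both panels (5 of 19 with LPS, 4 of 19 with vehicle), and metal carriers hold 4 lower calls of 24 in each. Of all tested genes 8.75% were higher and 11.8% lower with LPS, and 9.81% higher and 6.39% lower with vehicle.

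The higher carriers with vehicle were led by a peptide carrier. Slc15a2, the high-affinity proton-coupled importer of small peptides, read 109, 29.7, 61.9, 124 and 58.3 units in MCAD-/- mice, against 23.2, 2.95, 7.41, 3.29 and 5.95 in wild type mice. The lowest MCAD-/- mouse was above the highest wild type mouse, and 4 of 5 wild type mice were under 8 units. It was 10.8-fold higher (log2 difference 3.43 ± 0.80, SE; adjusted p = 0.00569). Slc26a1, a sulfate carrier, read 115, 136, 97.8, 108 and 76.4 units in MCAD-/- mice, against 27.9, 48.1, 11, 35.3 and 34.8 in wild type mice. Here too the groups lay apart, with a 3.7-fold higher level (adjusted p = 0.0167). Slc6a16, a member of the neurotransmitter carrier family whose substrate is not known, read 32.5, 36.9, 11.8, 25.8 and 9.34 units in MCAD-/- mice, against 5.51, 5.28, 6.18, 6.24 and 6.43 in wild type mice. Every wild type mouse was at the floor, 2 of the MCAD-/- mice were under 16 units, and the level was at least 1.27-fold higher (adjusted p = 0.000816). The gene passed the filter only through MCAD-/- mice, so this p is not independent of the filter. Slc2a1 read 243, 248, 224, 257 and 235 units in MCAD-/- mice, against 138, 145, 111, 139 and 156 in wild type mice, and the groups did not overlap. It was 1.76-fold higher (adjusted p = 0.00151). Slc7a2 read 4599, 3810, 4111, 4064 and 3058 units in MCAD-/- mice, against 2658, 2392, 2488, 2319 and 2627 in wild type mice, also without overlap. It was 1.56-fold higher (adjusted p = 0.00142). Slc38a2, a sodium-coupled importer of small neutral amino acids, read 3078, 2561, 2433, 2685 and 1850 units in MCAD-/- mice, against 1615, 1612, 1729, 1451 and 1675 in wild type mice. It was 1.54-fold higher without overlap (adjusted p = 0.00266), a call that ended with the mean of its probe sets (adjusted p = 0.172). Slc11a1 of macrophages was 1.73-fold higher, and Slc43a3, a purine nucleobase carrier of a family otherwise known for amino acids, 2.52-fold.

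The lower carriers with vehicle included a zinc, a manganese and a bile acid carrier. Slc39a2, a zinc importer, read 5.63, 5.14, 6.22, 5.03 and 4.51 units in MCAD-/- mice, against 23.2, 54.1, 24.7, 53.9 and 30.9 in wild type mice. It exceeded 16 units in wild type mice with vehicle alone of the 4 groups, and was at least 2.18-fold lower in MCAD-/- (adjusted p = 1.08e-07), where the filter has the same part. Slc30a10, the manganese exporter, read 7.34, 16.7, 4.95, 6.1 and 34.7 units in MCAD-/- mice, against 60.8, 52.7, 70.1, 51.6 and 55.5 in wild type mice. The MCAD-/- mice were spread, with 3 under 8 units and 1 at 34.7, and all lay below the wild type mice (log2 difference -2.46 ± 0.38, SE; adjusted p = 0.000143). Slc10a2 read 9.73, 10.4, 18.7, 14.8 and 16 units in MCAD-/- mice, against 74.5, 56, 125, 69.3 and 74.7 in wild type mice. Each MCAD-/- mouse was near the floor and each wild type mouse well above it, a 5.7-fold lower level (adjusted p = 4.46e-05). Slc4a4, the sodium-bicarbonate cotransporter that helps to set cell pH, read 276, 295, 317, 274 and 350 units in MCAD-/- mice, against 569, 459, 682, 510 and 487 in wild type mice. It was 1.78-fold lower without overlap (adjusted p = 0.00348) by its brightest probe set, and none of its 3 other probe sets above the filter passed. Slc19a1 was 1.55-fold lower, Slc13a3 2.6-fold, Slc23a1, a vitamin C importer, 1.81-fold, and Slc20a2, a phosphate importer, 1.42-fold. The zinc carriers of the secretory pathway Slc30a5 and Slc30a6 were 1.45-fold and 1.43-fold lower. Other calls with vehicle that ended in some alternatives were Slc3a1 (8 of 31, highest adjusted p = 0.0844), Slc37a1 (9, 0.0899), Slc44a2 (5, 0.0686), Slc43a2 (4, 0.0651) and Slc39a6 (4, 0.0631).

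**Figure D4:**
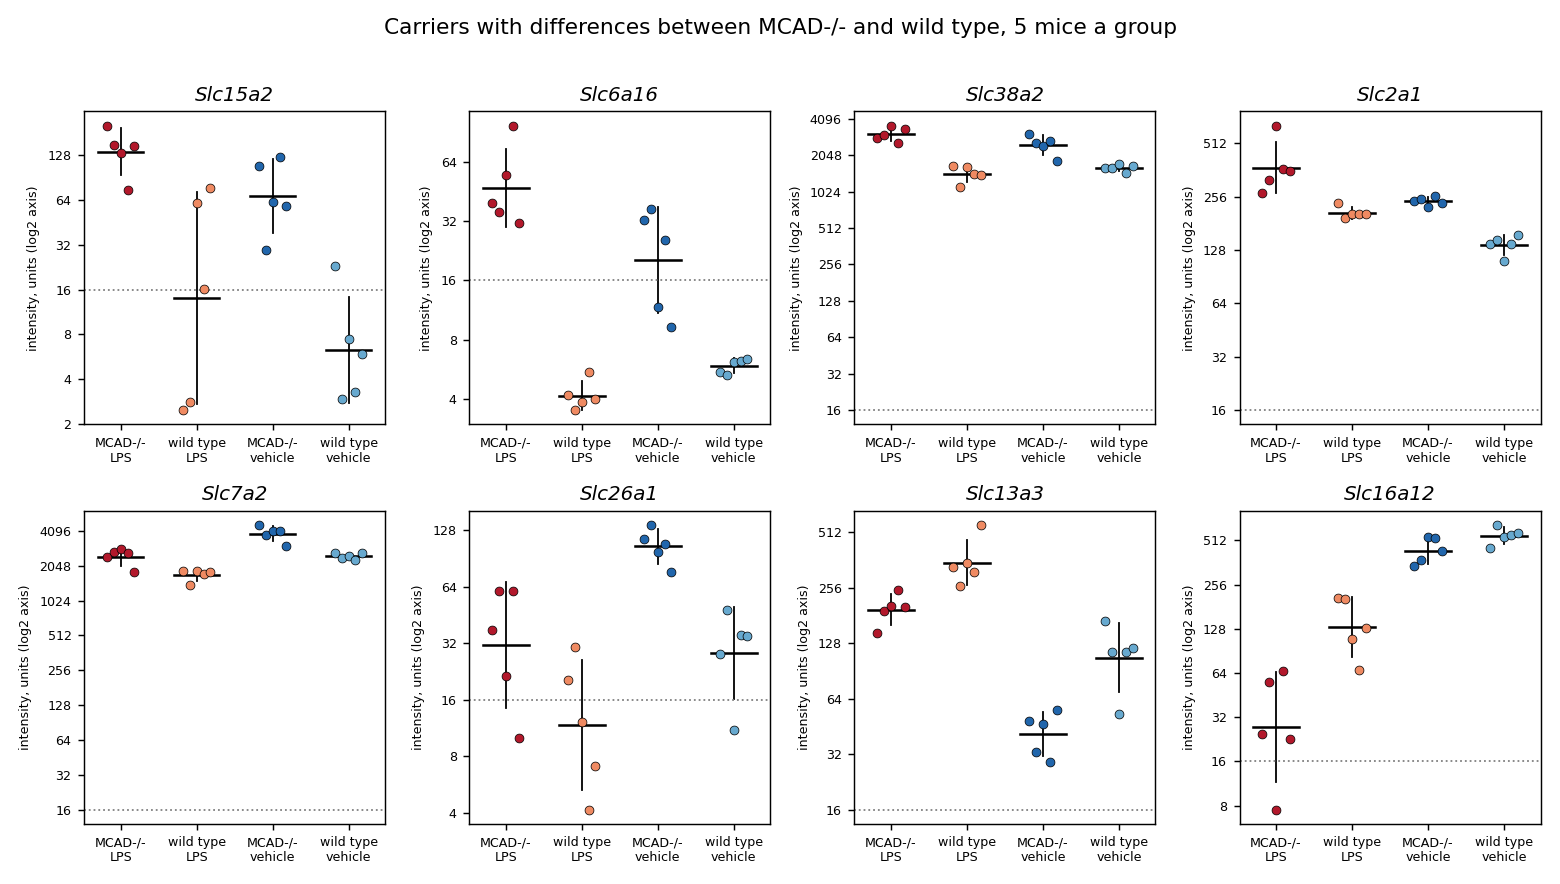
Intensity of 8 carrier genes that differed between genotypes, on a log2 axis in each mouse, for MCAD-/- LPS, wild type LPS, MCAD-/- vehicle and wild type vehicle from left to right; bars are geometric means, lines 1 SD of the log2 values, and the dotted line is 16 units. Slc6a16 stays under 8 units in all 10 wild type mice, and Slc2a1 is higher in MCAD-/- than in wild type mice with either injection.

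With LPS, 12 of 116 carriers were higher and 19 lower in MCAD-/- mice (26.7%), where 20.6% of all tested genes passed (8.75% higher, 11.8% lower). The groups did not overlap for 6 genes higher and 11 lower, against 5.44% and 7.36% of all tested genes. The median log2 difference was -0.13, against -0.03 over all tested genes. Here 0 of 11 endothelial markers were higher and 2 lower, 2 of 8 stellate cell and fibroblast markers were lower, and 0 of 10 Kupffer cell and macrophage markers passed. Of 3 neutrophil markers 1 was higher, as was 1 of 6 hepatocyte markers. The part of these cells in the carrier differences was not tested. The genes higher with both injections were Slc15a2, Slc15a3, Slc2a1, Slc38a2, Slc6a16 and Slc7a2, which is 50% of the list with LPS and 46.2% of the list with vehicle. For Slc15a3 every vehicle mouse was under 16 units. Those lower with both were Slc13a3, Slc19a1, Slc20a2, Slc23a1, Slc27a5, Slc30a6 and Slc39a2 (36.8% and 43.8%). With LPS the call of Slc39a2, with both groups at the floor, ended in 20 of 31 alternatives (highest adjusted p = 0.127).

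Slc6a16 read 39.6, 35.7, 55, 97.5 and 31.3 units in MCAD-/- mice with LPS, against 4.18, 3.53, 3.85, 5.49 and 4 in wild type mice with LPS. Every wild type mouse was at the floor and every MCAD-/- mouse above it, at least 2.96-fold higher (adjusted p = 1.75e-07), with the same limit from the filter. Slc15a2 read 203, 150, 133, 75.2 and 149 units in MCAD-/- mice, against 2.48, 2.79, 61.6, 16.3 and 77.7 in wild type mice. The wild type mice were widely spread, from the floor to 77.7 units, and the groups overlapped. The log2 difference was 3.27 ± 0.80 (SE; adjusted p = 0.00661) and 2.65 to 3.89 with each mouse left out in turn. Slc38a2 read 2866, 3004, 3594, 2603 and 3382 units in MCAD-/- mice, against 1664, 1124, 1648, 1431 and 1402 in wild type mice. The groups were well apart, with a 2.13-fold higher level (adjusted p = 6.02e-06). Slc2a1 read 267, 316, 644, 369 and 356 units in MCAD-/- mice, against 237, 193, 205, 204 and 204 in wild type mice. It was 1.79-fold higher without overlap (adjusted p = 0.000998), and 1 MCAD-/- mouse stood high at 644 units. Slc43a1, an importer of branched-chain and aromatic amino acids, was 2.38-fold higher (adjusted p = 0.00207), and Slc7a2 1.43-fold (adjusted p = 0.00676).

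Among the carriers lower with LPS in MCAD-/- mice, Slc16a12 read 24.4, 55.5, 7.52, 66.3 and 22.8 units, against 206, 203, 109, 66.8 and 130 in wild type mice. The highest MCAD-/- mouse and the lowest wild type mouse nearly met, at 66.3 and 66.8 units, and the level was 4.81-fold lower (adjusted p = 0.000673). Slc47a1, whose values with LPS stand above, was 3.01-fold lower (adjusted p = 1.96e-05), and Slc13a5 was 2.96-fold lower (adjusted p = 3.13e-05), both without overlap. Slc13a3 read 145, 192, 203, 248 and 201 units in MCAD-/- mice, against 331, 263, 351, 310 and 560 in wild type mice. It was 1.8-fold lower (adjusted p = 0.0251), a call that ended without wild type LPS replicate 5 and without MCAD-/- LPS replicate 1 (highest adjusted p = 0.0694). Slc20a1, a phosphate importer, was 1.77-fold lower by its brightest probe set (adjusted p = 8.09e-05) and did not pass by the mean of its probe sets (adjusted p = 0.856). Of the metal carriers only Slc41a2 had groups that did not overlap. It was higher in MCAD-/- mice (1882 to 2696 units, wild type 1117 to 1837) and did not pass. Where 11.8% of all tested genes were lower and 8.75% higher, 4 of 24 metal carriers passed as lower (16.7%) and 0 as higher. They included Slc39a4, a zinc importer (1.44-fold lower; 6 of 31 alternatives ended the call, highest adjusted p = 0.0843), Slc39a11 (1.32-fold; 7, 0.0953) and Slc30a6 (1.28-fold; 5, 0.0997).

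The LPS response itself was compared between genotypes by the interaction, the log2 change in MCAD-/- minus that in wild type. It passed for 11 of 116 carriers, 6 higher and 5 lower (9.48%), where 4.11% of all tested genes passed (1.36% higher, 2.76% lower). The median was -0.05, against -0.07 over all tested genes. Centring the arrays on their medians gave 6 higher and 3 lower, and a further quantile normalization 8 higher and 4 lower. It passed for 7 without wild type vehicle replicate 4, wild type LPS replicate 1 or MCAD-/- LPS replicate 3, for 19 with array quality weights and for 6 with a stricter filter of 64 units. Among the 109 carriers with a mean log2 level above 4, 9 passed (8.26%), 4 higher and 5 lower. Slc39a2 and Slc6a16, whose filter limit is given below, were not among the 109.

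Slc4a4 was the only carrier past the threshold in opposite directions in the 2 genotypes. It read 578, 446, 374, 383 and 473 units in MCAD-/- mice with LPS and 244, 249, 232, 177 and 439 in wild type mice with LPS, to be set beside the vehicle values above. LPS mice were above vehicle mice in MCAD-/- and below them in wild type. The LPS change was 0.56 ± 0.18 (SE) in MCAD-/- and -1.07 ± 0.18 in wild type, a difference of 1.63 ± 0.26 (adjusted p = 0.00105). Slc3a1, the heavy chain of the cystine and basic amino acid exchanger, read 849, 968, 1071, 1256 and 482 units in MCAD-/- mice with LPS, against 228, 259, 193, 258 and 442 with vehicle. It read 481, 418, 429, 470 and 352 units in wild type mice with LPS, against 351, 473, 517, 458 and 406 with vehicle. MCAD-/- mice with LPS were the highest group and MCAD-/- mice with vehicle the lowest on average, while both wild type groups overlapped. The LPS change was 1.74 ± 0.22 in MCAD-/- and -0.03 ± 0.22 in wild type, a difference of 1.77 ± 0.31 (adjusted p = 0.00264). Its promoter is shown as that of a carrier whose LPS change passed in MCAD-/- and not in wild type, with the reverse strand of the C/EBP motif and then the HNF4 motif in capitals.
Slc3a1, chr17:85028097-85028346, plus strand: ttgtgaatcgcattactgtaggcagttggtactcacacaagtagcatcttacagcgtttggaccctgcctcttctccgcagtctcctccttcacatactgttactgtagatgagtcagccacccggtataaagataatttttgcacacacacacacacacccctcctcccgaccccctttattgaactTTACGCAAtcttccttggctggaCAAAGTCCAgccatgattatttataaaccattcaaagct
This was the 1 HNF4 match among the 126 promoters.

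**Figure D5:**
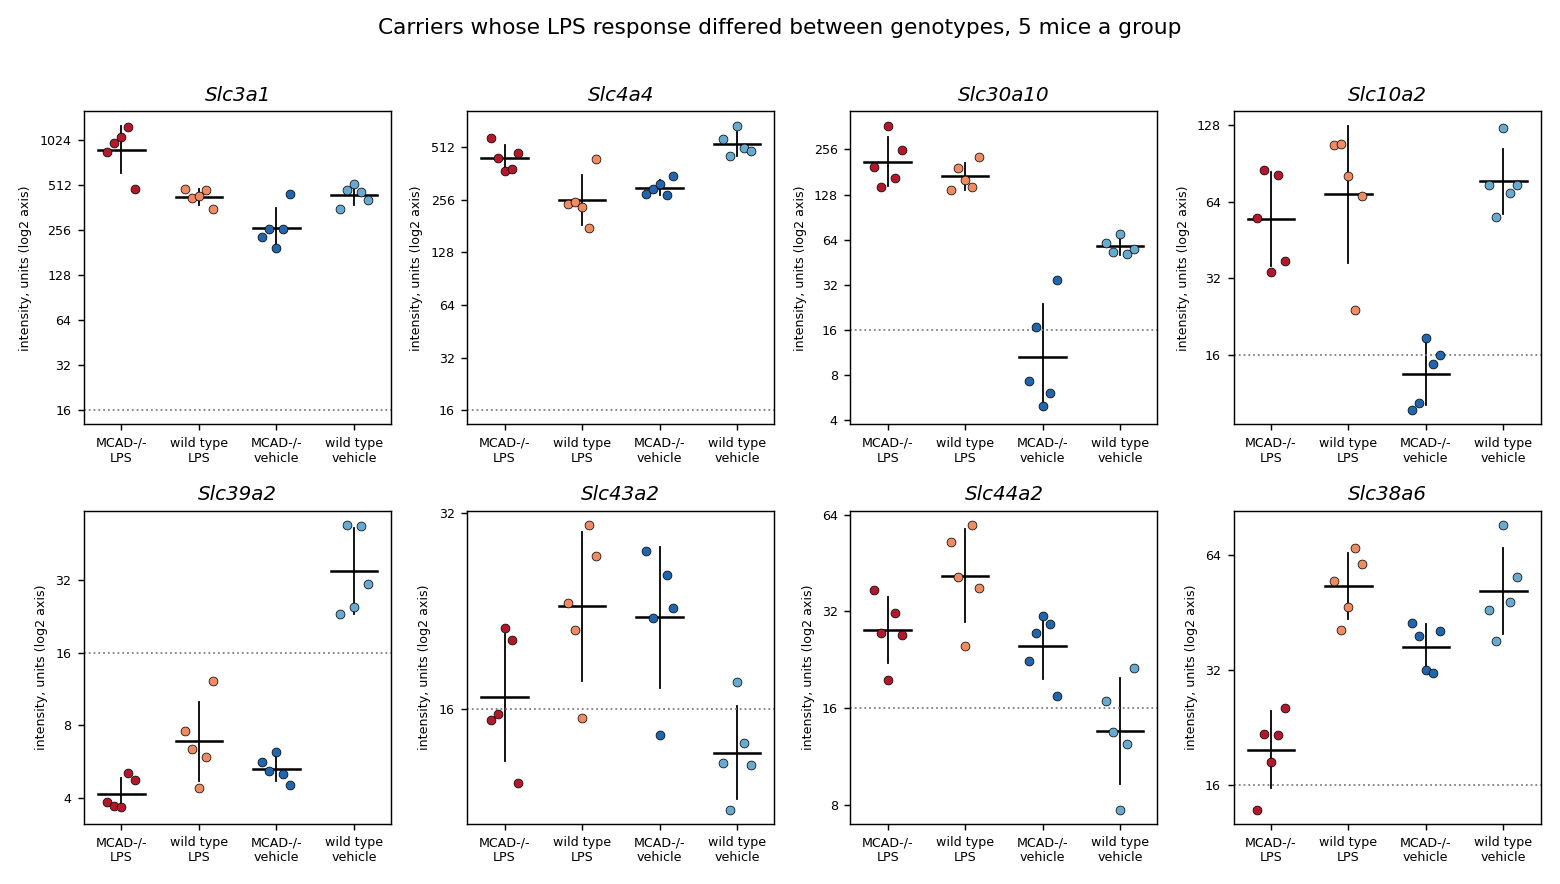
Intensity of 8 carrier genes whose LPS response differed between genotypes, on a log2 axis in each mouse, for MCAD-/- LPS, wild type LPS, MCAD-/- vehicle and wild type vehicle from left to right; bars are geometric means, lines 1 SD of the log2 values, and the dotted line is 16 units. Slc30a10 and Slc10a2 are near the dotted line only in MCAD-/- mice with vehicle, and Slc39a2 is above it only in wild type mice with vehicle.

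Slc30a10 read 196, 144, 369, 166 and 252 units in MCAD-/- mice with LPS and 138, 193, 159, 144 and 227 in wild type mice with LPS. The LPS groups overlapped, and the genotypes lay apart with vehicle only. The LPS change was 4.34 ± 0.38 in MCAD-/- and 1.55 ± 0.38 in wild type (difference 2.78 ± 0.54, adjusted p = 0.00568). Slc10a2 read 55.4, 85.6, 34, 81.7 and 37.5 units in MCAD-/- mice with LPS and 107, 108, 81.2, 24 and 67.4 in wild type mice with LPS. These too overlapped, and the change was 2.02 ± 0.36 in MCAD-/- and -0.17 ± 0.36 in wild type (difference 2.19 ± 0.50, adjusted p = 0.0171). For Slc39a2 the difference of 2.00 ± 0.35 (adjusted p = 0.00264) rests on wild type mice, in which it was at least 2.18-fold lower with LPS. In all, 3 of its 4 groups lay at the floor, and it passed the filter only through wild type mice with vehicle. The filter thus partly fixed the direction of this difference, and this p is not independent of the filter. Slc6a16 differed by 1.73 ± 0.47 (adjusted p = 0.0393), with both wild type groups at the floor. It passed the filter only through MCAD-/- mice, so this p is not independent of the filter. Slc13a5 differed by -1.54 ± 0.31 (adjusted p = 0.00669), with both vehicle groups at the floor and its other probe set not past the threshold.

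Slc43a2, Slc44a2 and Slc38a6, whose LPS change was lower in MCAD-/- than in wild type, were dim. Slc43a2, an importer of large neutral amino acids, read 15.4, 15.7, 21.3, 20.4 and 12.3 units in MCAD-/- mice with LPS, against 28, 22.1, 14.6, 25.7 and 22.9 with vehicle. It read 23.3, 21.2, 15.5, 30.7 and 27.5 units in wild type mice with LPS, against 13.2, 11.2, 17.6, 14.2 and 13.1 with vehicle. The pairs of groups overlapped in both genotypes, and the difference in response was -1.15 ± 0.28 (adjusted p = 0.0231). Slc44a2 read 37.4, 27.5, 19.6, 31.6 and 27.1 units in MCAD-/- mice with LPS, against 22.4, 27.4, 31, 29.2 and 17.5 with vehicle. It read 52.8, 41, 25, 59.4 and 37.8 units in wild type mice with LPS, against 16.9, 13.5, 7.74, 12.4 and 21.4 with vehicle. LPS mice lay above vehicle mice in wild type alone, and the difference was -1.44 ± 0.36 (adjusted p = 0.0288; 8 of 31 alternatives ended it). In the same comparison 5 of 11 endothelial markers were lower, with a median log2 difference of -1.46, and their part in these differences was not tested. Slc38a6 read 13.8, 21.8, 18.4, 21.6 and 25.5 units in MCAD-/- mice with LPS, against 42.4, 39.2, 32, 31.4 and 40.5 with vehicle. All LPS mice were below all vehicle mice in MCAD-/- (log2 change -0.89 ± 0.19), and the wild type change was 0.04 ± 0.19 (difference -0.94 ± 0.26, adjusted p = 0.0475). That call ended in 21 of 31 alternatives, that of Slc20a1 (difference -0.63 ± 0.18) in 20 and that of Slc6a16 in 13.

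Other membrane transporters were read beside the carriers. All 6 named SLCO genes, sodium-independent carriers of organic anions, were tested. In MCAD-/- 1 rose and 5 fell with LPS, and in wild type 2 rose and 4 fell. Slco3a1, which rose in both genotypes, was under 16 units in every vehicle mouse. Of all tested genes 38.1% rose and 27.6% fell with LPS in MCAD-/-, and 40% rose and 24% fell in wild type. Slco1a4 was at least 18.1-fold lower with LPS in MCAD-/- and 25.5-fold lower in wild type, where the mice with LPS averaged 9.32 units. Slco2a1, a prostaglandin carrier, was 5.7-fold higher in MCAD-/- mice with vehicle (adjusted p = 8.06e-09) and differed in its LPS response by -1.97 ± 0.27 (adjusted p = 0.000228), beside the endothelial values above. Of 10 tested ATP-driven (ABC) transporters 8 fell and 2 rose with LPS in MCAD-/-, with the same counts in wild type. Abcg5, which exports sterols into bile, fell 2.33-fold in MCAD-/- and 5.46-fold in wild type (interaction 1.23 ± 0.20, adjusted p = 0.00144). Abcb4, the phospholipid exporter, fell 7.14-fold in MCAD-/- and 3.14-fold in wild type (interaction -1.19 ± 0.26, adjusted p = 0.0119). Of 7 tested sodium pump subunits and carrier partners 2 rose and 2 fell with LPS in MCAD-/-, and 2 rose and 2 fell in wild type. Atp1b1, a beta subunit of the sodium pump, was 2.22-fold higher in MCAD-/- with LPS (adjusted p = 0.00208).

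Carriers read as working mainly in organelles and the rest were counted apart. With LPS 13 of 31 organelle carriers rose and 9 fell in MCAD-/-, and 15 rose and 10 fell in wild type. Of the other 85, 29 rose and 34 fell in MCAD-/-, and 31 rose and 37 fell in wild type. The shares of all tested genes with LPS are those given above. All 11 carriers with an interaction were among the 85 (12.9% of them), and 4.11% of all tested genes had one. The 11 include Slc39a2 and Slc6a16, with the limit from the filter given above. The 8 carriers on chromosome 3, which also holds Acadm, were Slc16a1, Slc16a4, Slc30a7, Slc33a1, Slc35a3, Slc39a1, Slc39a8 and Slc50a1. None of them passed between genotypes with vehicle, where 16.2% of all tested genes did. With LPS, where 20.6% of all tested genes passed, only Slc50a1, a sugar carrier, passed as lower (adjusted p = 0.00922). No size is given for it, since all 5 MCAD-/- mice and 4 of 5 wild type mice were under 16 units. Of the called genes that have another probe set, a second one passed in the same direction for 20 of 27 with LPS in MCAD-/-, 22 of 28 in wild type, 7 of 11 between genotypes with LPS, 8 of 10 with vehicle and 2 of 4 for the interaction.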

How the data were processed

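Liver RNA of 20 male mice was read on single-channel Affymetrix arrays, 1 a mouse, in 4 groups of 5 taken from the labels, whose series description calls the mice biological replicates. The authors deposited a table of 45101 probe sets as linear intensity. Per the submitters' processing notes the intensity values came from GCRMA, a method that removes background by probe sequence, brings arrays to a common distribution and combines the probes of a set. Its version is not given in the sources used here. Since arrays were normalized to each other, a shift common to all transcripts would not be seen, and dim probe sets are drawn to a floor. The deposited values were taken to log2 with no pseudocount. Precision is limited by the number of mice.

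Probe sets with 1 symbol in the platform annotation (34945) gave 18193 genes, each read from its brightest probe set over all arrays; 64 control probe sets were left out. All 116 carriers matched RefSeq (GRCm38.p6) under the same symbol. A linear model of the 4 groups was fitted to the 8774 genes above 16 units on at least 5 arrays with limma 3.58.1 in R 4.3.3, and 5 contrasts were tested two-sided with Benjamini-Hochberg adjustment over all 8774 (threshold 0.05). Every adjusted p printed is from limma. Acadm was compared by exact permutation (scipy 1.17.1). Where all 5 mice of the dimmer group were under 16 units, a fold is given as "at least", the brighter group's mean over 16 units. Of the 116 probe sets, 3 carry the suffix x_at, 6 s_at and 15 a_at, which mark designs that can bind transcripts of more than 1 gene or of 1 gene's variants.

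The carrier genes, the substrate, organelle, marker and companion lists and the naming rule were chosen with earlier results of these data known. The rule named, per contrast, the 6 largest rises and falls among calls whose groups did not overlap (interaction: all calls), up to 3 genes of each substrate group and of each companion list by adjusted p, the genes next to the level filter, those on the chromosome of Acadm, and a panel of carriers. Of that panel Slc44a5 was not analysed here, and Slc1a4 lay below the filter. Alternatives were a replicate block, dropping or tightening the filter, reading every probe set alone or their mean, median centring, quantile normalization on top, array weights, a prior both trended and robust, the compared groups only, an added 1.5-fold minimum, carriers with a mean log2 level above 4 only, and each mouse left out. The script was tested on simulated data.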

Additional observations from a re-analysis of the deposited data

Results flagged for a closer look

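In 78 named carriers, each of the 4 groups of 5 mice was examined for a highest or lowest mouse whose gap to its nearest neighbour exceeded 0.71 of the group's range. This picked 20 of 312 groups (6.41%), where chance picks about 1 in 20. Wild type vehicle replicate 3, which had a high actin ratio, held 9 of the 20. It was the lowest of its group for Slc22a23 (314 units, the others 391 to 426), Slc29a1 (192, the others 525 to 601), Slc2a8 (20, the others 27 to 28.2), Slc39a4 (160, the others 251 to 286), Slc3a2 (55.6, the others 153 to 193), Slc46a1 (123, the others 206 to 223) and Slc50a1 (11.6, the others 19.2 to 22.4). It was the highest for Slc30a5 (618, the others 452 to 493) and Slc33a1 (736, the others 540 to 579). Without this mouse 31 carriers passed between genotypes with vehicle, 34 between genotypes with LPS, 86 for LPS in MCAD-/-, 91 for LPS in wild type and 12 for the interaction.

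The other mice that stood apart were in single genes. MCAD-/- LPS replicate 3 was lowest for Slc33a1 (341 units, nearest 473) and Slc35a3 (354, nearest 406). MCAD-/- LPS replicate 4 was lowest for Slc39a10 (148, nearest 301), and MCAD-/- LPS replicate 5 for Slc49a4 (107, nearest 153). MCAD-/- LPS replicate 2 was highest for Slc50a1 (9.83, nearest 7.88, all at the floor) and MCAD-/- LPS replicate 1 for Slc5a2 (16.6, nearest 13.1). Wild type LPS replicate 2 was lowest for Slc7a2 at 1392 units. MCAD-/- vehicle replicate 3 was lowest for Slc16a10 (245, nearest 358), and MCAD-/- vehicle replicate 5 was highest for Slc37a1 (21.6, nearest 13.7) and lowest for Slc3a2 (102, nearest 128). Wild type vehicle replicate 1 was lowest for Slc37a3 (17.6, nearest 27.6).

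The LPS response differed between genotypes for 11 carriers by the interaction test, as log2 change in MCAD-/- minus that in wild type. The log2 change was higher in MCAD-/- for Slc30a10 (2.78, adjusted p = 0.00568), Slc10a2 (2.19, 0.0171), Slc39a2 (2.00, 0.00264), Slc3a1 (1.77, 0.00264), Slc6a16 (1.73, 0.0393) and Slc4a4 (1.63, 0.00105). For Slc39a2 a fall in wild type made it so, and for Slc4a4 a rise in MCAD-/- together with a fall in wild type. It was lower for Slc13a5 (-1.54, adjusted p = 0.00669), Slc44a2 (-1.44, 0.0288), Slc43a2 (-1.15, 0.0231), Slc38a6 (-0.94, 0.0475) and Slc20a1 (-0.63, 0.0457). Slc39a2 passed the filter only through wild type mice with vehicle, and Slc6a16 only through MCAD-/- mice. The p values of both are therefore not independent of the filter.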

How the results depend on the processing

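Most counts of carriers past the threshold stayed within 1.5 times of the reported ones. With array quality weights 44 in place of 29 passed between genotypes with vehicle, and 19 in place of 11 for the interaction, which fell to 6 with the stricter filter. Leaving out each mouse in turn gave 24 to 34 between genotypes with LPS, 23 to 34 with vehicle, 81 to 88 for LPS in MCAD-/-, 85 to 94 for LPS in wild type and 7 to 12 for the interaction, with 12 without wild type vehicle replicate 3. Replicate numbers are not stated to pair the mice, and the values do not settle whether they do. Over 30 pairs of same-numbered mice the correlation of their deviations ran from -0.122 to 0.284 (median 0.0181). Over 120 pairs of differently numbered mice it ran from -0.346 to 0.243 (median 0.00146). The replicate block gave 34, 29, 86, 91 and 10 calls for the 5 comparisons in the same order. For single named genes, 3 values reversed, all with the mean of probe sets: Slc16a10 for LPS in MCAD-/- (0.54) and in wild type (0.02), where its probe sets disagree, and Slc20a1 for the interaction (0.00), whose cause was not tested. Every alternative run kept the call for 17 of 27 named genes between genotypes with LPS, 19 of 28 with vehicle, 55 of 62 for LPS in MCAD-/-, 56 of 67 in wild type and 7 of 11 for the interaction. Leaving out both arrays of highest actin ratio, an alternative chosen after seeing the data, gave 28, 31, 90, 87 and 10 calls in that order. Levels under 16 units are not measured apart from the floor, and 144 carriers were too dim to test.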

Other observations

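LPS counts follow for the families with at least 4 tested genes not counted above; differences between families were not tested. Of all tested genes 38.1% were higher and 27.6% lower in MCAD-/-, and 40% higher and 24% lower in wild type. Of 5 Slc22 genes, carriers of organic ions and carnitine, 4 fell and 0 rose in MCAD-/- (median log2 change -2.21), and 4 fell and 1 rose in wild type (median -1.73). Of 7 Slc16 genes 4 fell and 2 rose in MCAD-/-, and 5 fell and 2 rose in wild type. Of 7 Slc38 genes, sodium-coupled neutral amino acid carriers, 4 fell and 0 rose in MCAD-/-, and 2 fell and 1 rose in wild type. Of 5 Slc35 genes, nucleotide sugar carriers of the Golgi, 3 rose and 1 fell in MCAD-/-, and 2 rose and 1 fell in wild type. Of 6 Slc6 genes, sodium-coupled carriers of transmitters, creatine and amino acids, 2 rose and 3 fell in MCAD-/-, and 1 rose and 3 fell in wild type. Of 4 Slc12 genes, chloride cotransporters, 2 rose and 1 fell in each genotype, and of 4 Slc17 genes 1 rose and 1 fell in each. Slc66a1, the lysosomal exporter of basic amino acids, was 2-fold higher with LPS in MCAD-/- (adjusted p = 6.66e-05) and 2.63-fold higher in wild type (adjusted p = 1.34e-06). Slc37a1, a sugar phosphate exchanger of the endoplasmic reticulum, was 4.8-fold higher in MCAD-/- (adjusted p = 1.64e-06) and 2.44-fold higher in wild type (adjusted p = 0.000832).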
